A study of Mus musculus with 6 samples.

Results

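The genes described here are 40 genes of innate immune signalling, namely the Toll-like receptors with their adaptors and kinases, the cytosolic RNA sensors, the interferon regulatory factors, the interferon receptor with its effectors, and the subunits and inhibitors of NF-kB. They were taken by name from a fixed list and make up 40 of the 22380 protein_coding genes of the GENCODE vM1 annotation on the mouse genome build mm9. For each gene, the p53 peaks were collected that overlapped the gene body extended by 5 kb on both sides, called the gene window below. The study mapped p53, a transcription factor that accumulates after DNA damage, by ChIP-seq with the antibody NCL-p53-CM5p in mouse spleen. The mice were of strain C57/Bl6. The wild-type groups were Trp53+/+ B cells, selected with beads against the B cell surface protein B220, and Trp53+/+ non-B cells, the mixed population left after B220 depletion, both from animals 8 weeks old and either mock treated or taken 4 h after 7 Gy of whole-body irradiation (IR). The control for the antibody was total spleen from Trp53-/- mice 4 h after 7 Gy, whose age the labels do not give. It was not separated into B and non-B cells. Each of these 5 groups had 1 library made from chromatin pooled over animals, so the spread between replicates is not known and no test was made. A further library, input DNA from irradiated B cells, is not analysed here.

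The lists gave 1413 peaks in mock B cells, 24507 in irradiated B cells, 712 in mock non-B cells, 21400 in irradiated non-B cells and 83 in Trp53-/- spleen. The narrowest peak was 53 to 55 bp wide in the mock and Trp53-/- lists and 174 to 175 bp in the wild-type IR lists. The deposited value of a peak was −log10 of a p-value, as the authors' peak caller computed it, and was not normalised between libraries. Each value is therefore also given as a percentile within its own list. Sequencing depth is unknown, and p53 may have bound at places where no peak was called. The lists hold no expression, so neither the cell types nor the genotype could be checked against marker genes, and active and silent genes could not be told apart.

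Toll-like receptors recognise microbial products at the cell surface and in endosomes. Most of them signal through the adaptor Myd88, the Irak kinases and the Traf ubiquitin ligases. Cytosolic RNA is sensed by Ddx58 (RIG-I) and Ifih1 (MDA5) through Mavs. These routes lead to interferon regulatory factors, which switch on interferon genes, and to NF-kB, a family of dimeric transcription factors held in the cytoplasm by inhibitors such as Nfkbia. Interferons then act through their receptor, Stat2 and Irf9 to induce antiviral genes.

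The peak with the highest deposited value in the group, in both IR lists, lay inside Ifih1 and held a sequence close to the p53 response element. That element is a pair of decamers, each of 10 bases, in which the base C at position 4 and the base G at position 7 were required. It was sought without a spacer between the decamers, with at most 3 mismatches to the consensus in its 20 bases, within 300 bp of the peak midpoint. The consensus is its own reverse complement, so a single search covers both strands. The 8 genes below had such an element near an IR peak, and all of their elements with the fewest mismatches are printed because they are the closest in the group to the DNA sequence that p53 is known to bind. Each line gives the element in capitals with 5 bases on either side, 5′ to 3′ on the strand of the gene.
Ifih1: gtgtaGGGCAAGCCCACACATGTTCcaacc
Mx1: atgacTGGCCTGCCTGGGCATGTCTggcct
Irf1: agatgGAACATGTATACACTAGCCCagccg
Irak3: gggcaGGGCATGCCAGGACTTGCGCtgtgt
Tlr6: cgtgcGTGCTTGCTCAAGCTTGTGTgtata
Irf5: gtttaGGGCCAGCTTGAGCAAGGCCcaaac
Irf8: ccacaGGGCTAGAGCAGACATGCCAcccac
Ifnar2: tccggGAGCCTGCGTGGTCTAGCCCtagac
The Ifih1 element (mm9 chr2:62444886-62444905, minus strand) had 1 mismatch. The elements of Mx1 (chr16:97679388-97679407, minus), Irf1 (chr11:53582478-53582497, plus), Irak3 (chr10:119600084-119600103, minus), Tlr6 (chr5:65352417-65352436, minus) and Irf5 (chr6:29473318-29473337, plus) had 2 each, and those of Irf8 (chr8:123267881-123267900, plus) and Ifnar2 (chr16:91373097-91373116, plus) had 3 each. The Irf5 element was found at an irradiated B cell peak and the Ifnar2 element at an irradiated non-B cell peak, and the other 6 were found at peaks of both IR lists. The Irf5 element lay just outside its called peak, as did the Irf8 element for the irradiated non-B cell peak. Only the Ifih1 element, and in non-B cells the Mx1 element, lay at the highest peak of a gene ranked above the 80th percentile. The others were chosen for printing after their values were seen.

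After irradiation nearly all of these genes had a p53 peak, and without irradiation nearly none did. In irradiated B cells, 37 of the 40 gene windows held a peak (92.5%, 95% Wilson interval 80.1 to 97.4%, which covers counting error only), where the share of all protein_coding genes was 48.6%. In irradiated non-B cells the count was also 37, against 47.0% of all protein_coding genes. In mock B cells 1 gene had a peak, Irak2, against 3.69% of all genes. In mock non-B cells none had one, against 1.82%, and in Trp53-/- spleen none had one, against 0.103%.

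A longer gene can collect more peaks, so the same shares were taken over protein_coding genes whose body length was within 20% of each listed gene, a pool of 637 to 2372 genes per listed gene. The listed genes had a median length of 15.6 kb and ranged from 1.395 kb for Isg15 to 107.7 kb for Irf2, close to the median of 15.4 kb over all protein_coding genes. Among genes of similar length, 53.5% had a peak in irradiated B cells and 51.8% in irradiated non-B cells. The listed genes were therefore 39.0 and 40.7 percentage points above genes of their own length in irradiated B cells and irradiated non-B cells. Genes of similar length had a peak in 3.53% of cases in the mock B cell list and 1.75% in the mock non-B cell list, so the listed genes were not above them.

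**Figure D1:**
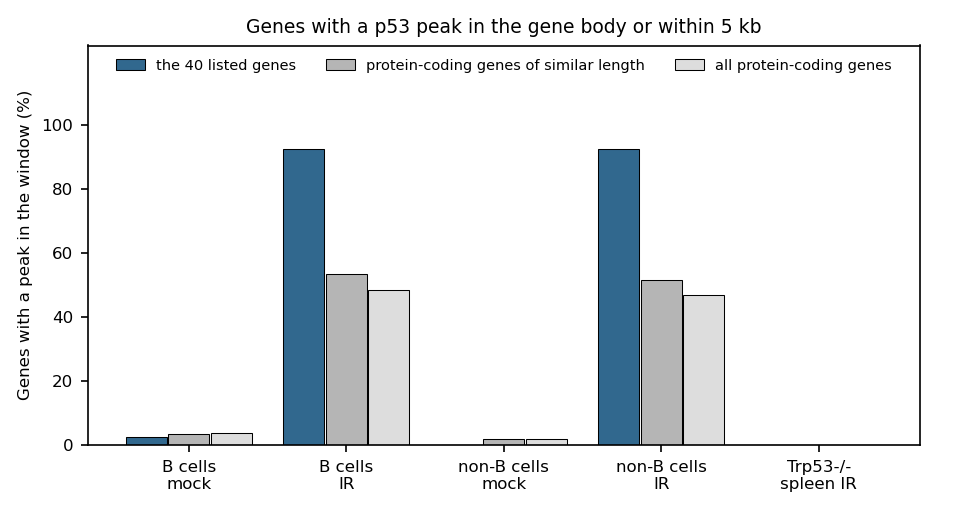
Share of genes, in percent, with at least 1 p53 peak in the gene body or within 5 kb, for each of the 5 lists (1 library each, no error bars). Bars show the 40 listed genes, protein_coding genes of similar length, and all protein_coding genes, and the listed genes stand at 92.5% in both IR lists and at 2.5% or 0 in the other lists.

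The gain was seen at promoters too. In the start-site window, which reached 5 kb before and 2 kb past any annotated start, 35 of the 40 genes had a peak in irradiated B cells, against 44.9% of genes of similar length and 39.5% of all genes. In irradiated non-B cells 35 also had one, against 43.7 and 38.4%. No start-site window held a peak in mock B cells (all genes 1.96%), in mock non-B cells (0.947%) or in Trp53-/- spleen (0.0670%). A peak after irradiation and none in mock was found for 36 genes in B cells (all genes 45.0%) and 37 in non-B cells (45.2%).

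These genes also held more peaks each. The 113 peaks of irradiated B cells gave a mean of 2.83 per listed gene, against 1.03 per gene of similar length, and the 86 peaks of irradiated non-B cells a mean of 2.15, against 0.929. The median was 2 in both lists, and the most were in Irak2, with 11 in irradiated B cells and 9 in irradiated non-B cells. By midpoint, 54 of the 113 irradiated B cell peaks were in introns, 29 upstream of the gene, 12 in untranslated regions, 12 downstream, 4 in coding exons and 2 in noncoding exons. In irradiated B cells 53 peaks (46.9%), and in irradiated non-B cells 42 (48.8%), lay within 1 kb of a start site of their own gene. Over all protein_coding genes the shares were 41.6 and 44.1%. There a peak was counted once for each gene window that held it, as also for the nearest start sites below. A peak within 1 kb of an own start site was found for 33 of the 40 genes in irradiated B cells, against 35.0% of all genes. In irradiated non-B cells it was found for 31, against 34.2%. The start site nearest to the peak belonged to another gene for 14 of the irradiated B cell peaks (12.4%, against 25.3% over all genes) and 11 of the irradiated non-B cell peaks (12.8%, against 25.5%).

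The highest peak of a gene ranked above the 80th percentile of its list for 17 genes in irradiated B cells, against 13.7% of genes of similar length and 13.5% of all genes. In irradiated non-B cells 12 genes did so, against 14.2 and 13.6%. None did in the mock lists, where 0.657% of all genes (B cells) and 0.335% (non-B cells) had such a peak. The genes in both lists were Ifih1, Ifnar2, Irak2, Irf2, Irf9, Mx1, Nfkbia, Nfkbie, Rel, Tlr4 and Tnfaip3. Those above the 80th percentile in irradiated B cells alone were Irf5, Irf8, Nfkb1, Tlr3, Tlr7 and Tlr9, and in irradiated non-B cells alone Ifnar1. Taken peak by peak rather than gene by gene, the group did not stand out, since 22.1% of its irradiated B cell peaks and 19.8% of its irradiated non-B cell peaks were above the 80th percentile, where all peaks gave 19.9% in each list. The larger number of peaks per gene stands beside this count of genes, and its part in it was not tested.

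**Figure D2:**
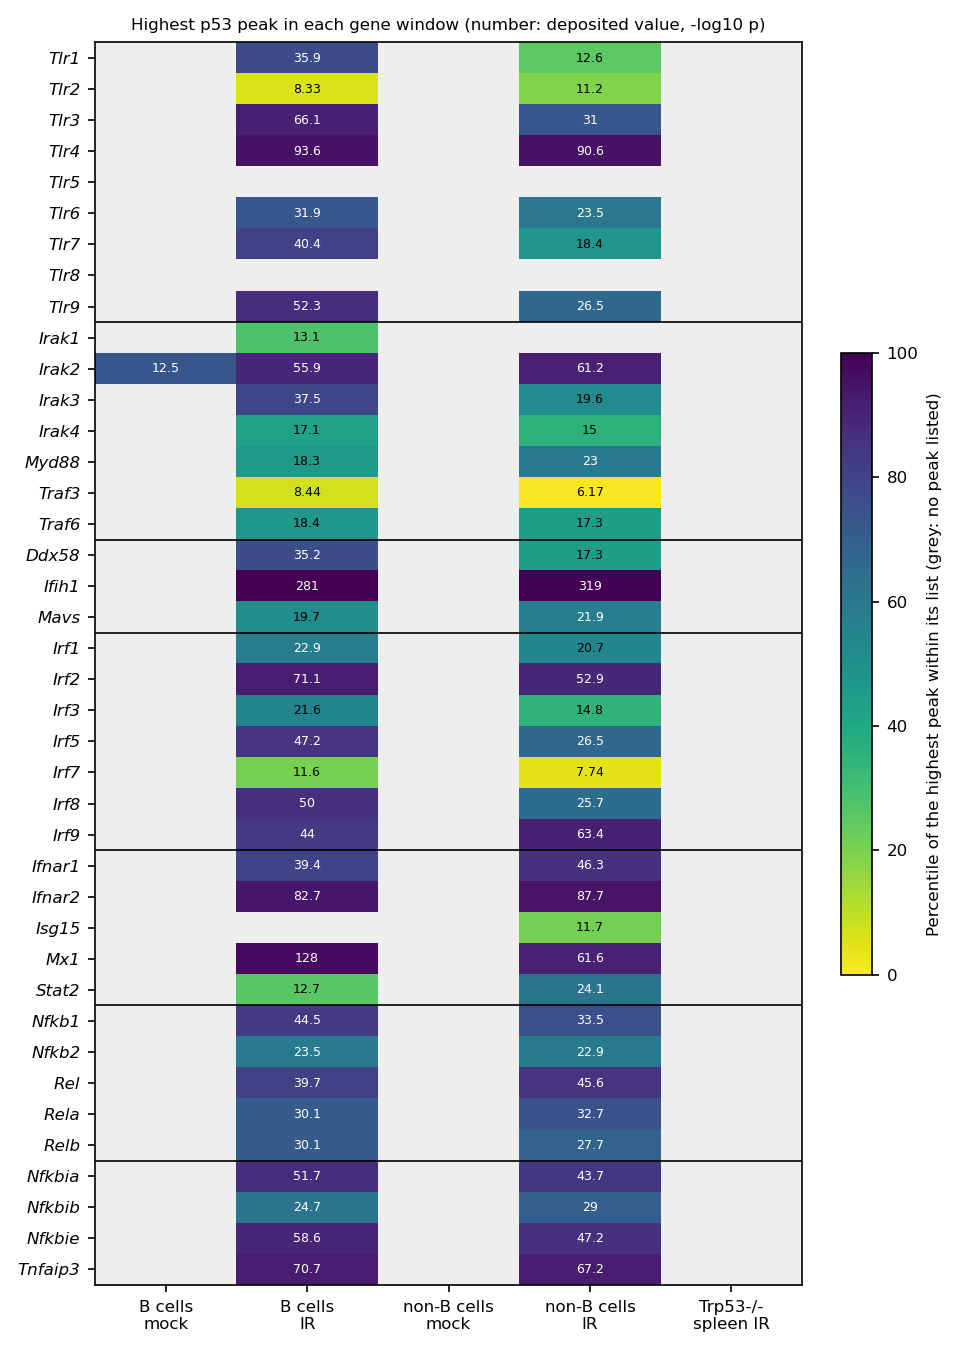
Highest p53 peak in the window of each of the 40 genes (rows, ordered by role, with lines between roles) in each of the 5 lists (columns). Colour gives the percentile of the peak within its own list, printed numbers give the deposited value (−log10 p), and grey cells have no listed peak: both IR columns are nearly filled, Irak2 is the only filled cell in a mock column, and the Trp53-/- column is empty.

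Of the 9 Toll-like receptors, 7 had a peak in each IR list, and Tlr5, the flagellin receptor, and Tlr8 had none in either. Tlr4, the receptor for bacterial lipopolysaccharide, had a peak over its start site at chr4:66488312-66489109, with a value of 93.57 (percentile 95.2) in irradiated B cells and 90.58 (94.9) in irradiated non-B cells. That peak was the highest of the receptors in both lists. Tlr3, which senses double-stranded RNA, had its highest peak 4.66 kb upstream of its start, with 66.11 (91.3) in irradiated B cells and 30.97 (72.6) in irradiated non-B cells. Tlr9, the receptor for unmethylated CpG DNA, gave 52.28 (87.0) and 26.53 (66.1) at a peak just upstream of its start. Tlr7, which senses single-stranded RNA, gave 40.44 (80.6) and 18.42 (48.0) at an intronic peak 1.88 kb from its start. Tlr3, Tlr7 and Tlr9 thus each ranked higher in the irradiated B cell list than in the irradiated non-B cell list, by 18.7 to 32.6 percentile points, while Tlr4 stood at nearly the same percentile in both. With 1 library each, the spread of such differences is not known.

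The highest peaks of the remaining receptors were below the 80th percentile in both lists, and those of Tlr1 and Tlr6 also ranked higher in irradiated B cells, by 51.4 and 12.3 percentile points, while that of Tlr2 ranked lower. Tlr6, a partner of Tlr2, had its element at a peak 1.04 kb upstream of its start, with 31.9 (72.7) in irradiated B cells and 23.53 (60.4) in irradiated non-B cells. Tlr1, the other partner of Tlr2, gave 35.88 (76.8) and 12.62 (25.4) at a peak downstream of the gene, 9.715 and 9.761 kb from its start. A peak just upstream of the Tlr1 start had 9.46 in both lists, at the percentiles 11.4 in irradiated B cells and 11.1 in irradiated non-B cells. Tlr2 itself, a receptor for bacterial lipoproteins, had 1 peak at its start of 8.33 (5.73) in irradiated B cells and 11.15 (18.9) in irradiated non-B cells, near the bottom of both lists.

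All 7 adaptor and kinase genes had a peak in irradiated B cells and 6 in irradiated non-B cells. Irak2, a kinase that sustains Toll-like receptor signalling, was the single listed gene with a peak without irradiation. Its mock B cell peaks were intronic, at chr6:113600257-113600317 with a value of 6.64 (percentile 13.3) and at chr6:113610035-113610213 with 12.52 (73.2). Each was covered by a peak of irradiated B cells, with values of 21.74 and 41.78. Neither was the highest Irak2 peak after irradiation, which lay 23.3 kb from the annotated gene start at chr6:113611427-113612010, with 55.88 (88.5) in irradiated B cells and 61.19 (90.8) in irradiated non-B cells. A peak beyond the end of Irak2, with 54.86 in irradiated B cells and 43.13 in irradiated non-B cells, was 0.203 and 0.218 kb from the start of the neighbouring gene Tatdn2.

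Irak3, an inhibitory member of the kinase family, had its element in an intronic peak of 21.74 (55.6) in irradiated B cells and 18.42 (48.0) in irradiated non-B cells. Its highest peak was another intronic one, with 37.46 (78.3) and 19.55 (51.6). Irak1, a kinase recruited by Myd88, had 1 peak over its start in irradiated B cells, with 13.08 (27.9), and none in irradiated non-B cells. It was the single listed gene in irradiated B cells alone, where 4.26% of all genes were so. The highest peaks of Myd88, Irak4 and Traf6 stayed between the percentiles 35.3 and 59.2 in both lists, and those of Traf3 were among the lowest, with 8.44 (6.94) and 6.17 (0.603). The highest Myd88 peak in irradiated non-B cells lay 0.027 kb from the start of the neighbouring gene Acaa1a and 0.144 kb from a Myd88 start. The Traf3 window missed a far higher peak, which lay 5.83 kb from the gene body in irradiated B cells, with 75.38 (92.9), and 5.88 kb in irradiated non-B cells, with 75.55 (93.4).

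All 3 genes of cytosolic RNA sensing had a peak in both IR lists. In Ifih1 the peak was intronic, at chr2:62444199-62445606 in irradiated B cells and chr2:62444330-62445346 in irradiated non-B cells, 39.4 kb from the start of Ifih1 and 32.8 kb from that of Fap, the next gene. Its value was 281.3 in irradiated B cells, the rank 47 of 24507, and 318.66 in irradiated non-B cells, the rank 163 of 21400. The element printed first above lay in it. No mock peak and no Trp53-/- peak was listed in the Ifih1 window. A much lower peak lay over the Ifih1 start, with 9.93 (12.2) in irradiated B cells and 27.38 (67.5) in irradiated non-B cells. Ddx58 had a single peak 4.46 kb upstream, with 35.2 (76.3) and 17.32 (44.3), and Mavs had its highest peak at its start, with 19.68 (50.9) and 21.89 (57.3).

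All 7 interferon regulatory factors had a peak in both IR lists, with 26 peaks in irradiated B cells and 19 in irradiated non-B cells. Irf2, a factor known as an antagonist of Irf1, had 8 and 7 peaks. The highest in irradiated B cells was an intronic peak 23.0 kb from the start, with 71.09 (92.2) in irradiated B cells and 49.88 (87.1) in irradiated non-B cells, and the highest in irradiated non-B cells was one just upstream of the start, with 52.93 (88.4) there and 47.22 (84.7) in irradiated B cells. Irf9, the DNA-binding part of the interferon-activated complex, had 1 peak near its start, with 44.0 (82.8) in irradiated B cells and 63.41 (91.4) in irradiated non-B cells. Irf2 and Irf9 were thus high in both compartments.

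Irf5, which acts below Toll-like receptors, had its highest peak 2.29 kb upstream of the annotated gene start, with 47.22 (84.7) in irradiated B cells and 26.53 (66.1) in irradiated non-B cells. Its element was at a separate irradiated B cell peak of 19.1 (48.4). Irf8, a factor of B cell and myeloid development, had its highest irradiated B cell peak downstream of the gene, with 50 (86.1), which gave 21.8 (56.5) in irradiated non-B cells. The Irf8 peak with the element gave 29.63 (69.8) and 16.04 (39.5). Irf1, an inducer of interferon-response genes, had its element at a peak 1.16 kb upstream, with 21.74 (55.6) in irradiated B cells and 12.13 (23.6) in irradiated non-B cells, and its highest peak at its start, with 22.89 (58.1) and 20.66 (54.0). Irf3 and Irf7, the main inducers of type I interferon genes, ranked between the percentiles 4.19 and 54.9.

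Of the interferon receptor genes, Stat2 and the effectors, 4 of 5 had a peak in irradiated B cells and 5 of 5 in irradiated non-B cells. Mx1, an antiviral GTPase, had its element in an intronic peak with 67.33 (91.5) in irradiated B cells and 61.57 (90.9) in irradiated non-B cells. A higher peak lay 5.29 kb upstream of the Mx1 start, at chr16:97689346-97690270 in irradiated B cells, with 128.21 (97.2). In irradiated non-B cells the overlapping peak of 167.68 (97.8) began 5.03 kb from the gene body, just outside the window, and was therefore not counted. The order of Mx1 between the compartments thus depends on the edge of the window.

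Ifnar2, a chain of the type I interferon receptor, had its highest peak at chr16:91405685-91407363 in irradiated B cells, with 82.73 (94.0), and at chr16:91405707-91406582 in irradiated non-B cells, with 87.67 (94.8). The midpoint was 0.039 and 0.265 kb away from the start of the neighbouring receptor gene Il10rb and 33.5 and 33.1 kb from the annotated start of Ifnar2, so this peak cannot be given to Ifnar2 by position. The Ifnar2 start itself had a peak in irradiated non-B cells alone, with 10.35 (15.5), and that peak held its element. Ifnar1, the other chain, had a peak at its start with 39.43 (79.9) in irradiated B cells and 46.33 (85.6) in irradiated non-B cells, values on either side of the 80th percentile. Stat2 gave 12.68 (25.8) in irradiated B cells and 24.14 (61.7) in irradiated non-B cells at its start. Isg15, a ubiquitin-like protein induced by interferon, had 1 peak at its start in irradiated non-B cells, with 11.66 (20.8), and none in irradiated B cells. It was the single listed gene in irradiated non-B cells alone, where 2.62% of all genes were so.

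All 5 NF-kB subunit genes and all 4 inhibitor genes had a peak in both IR lists. Tnfaip3 (A20), a ubiquitin-editing enzyme that ends NF-kB signalling, had a peak at its start with 61.22 (90.1) in irradiated B cells and 67.18 (92.0) in irradiated non-B cells, and another 6.25 kb inside the gene with 70.72 (92.1) and 44.37 (84.2). Nfkbie, an inhibitor of the IkB family, had 7 peaks in irradiated B cells and 5 in irradiated non-B cells, the highest in an intron with 58.56 (89.4) and 47.17 (85.8). Its irradiated B cell peaks beyond the gene end lay 0.586 and 0.071 kb from the start of the neighbouring gene Slc35b2. The irradiated non-B cell peak there lay 0.065 kb from it. Nfkbia (IkBα) had its highest peak over its start, at chr12:56593362-56594024 in irradiated B cells, with 51.68 (86.8), and 43.71 (84.0) in irradiated non-B cells. Nfkbib, the remaining inhibitor, ranked lower, with 24.7 (61.7) in irradiated B cells and 28.97 (70.1) in irradiated non-B cells. Inhibitors had the highest median percentile of the roles in irradiated B cells, with 88.1 against 87.0 for the interferon receptor group. In irradiated non-B cells that group stood slightly higher, with 85.6 against 84.9 for the inhibitors. Its medians count the Ifnar2 peak at the Il10rb start, and the inhibitor medians rest on 4 genes.

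Among the subunits, Rel (c-Rel), the subunit abundant in lymphocytes, had 39.7 (80.2) in irradiated B cells at an intronic peak and 45.6 (85.0) in irradiated non-B cells at a peak upstream of its start. Nfkb1 (p105 and p50) had 9 and 5 peaks, the highest with 44.48 (83.2) and 33.45 (75.5), 83.2 kb inside the gene and close to the start of a shorter annotated transcript. Nfkb2 had its highest peak at its start, with 23.53 (59.3) and 22.93 (58.6), and Rela and Relb ranked between the percentiles 68.3 and 74.9. The highest Rela peak lay downstream of the gene in both lists, 11.1 kb from the nearest Rela start. The Rela start itself had a peak in irradiated non-B cells alone, with 10.19 (13.8). The highest Relb peak in irradiated non-B cells lay 0.008 kb from the start of the neighbouring gene Clasrp.

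**Figure D3:**
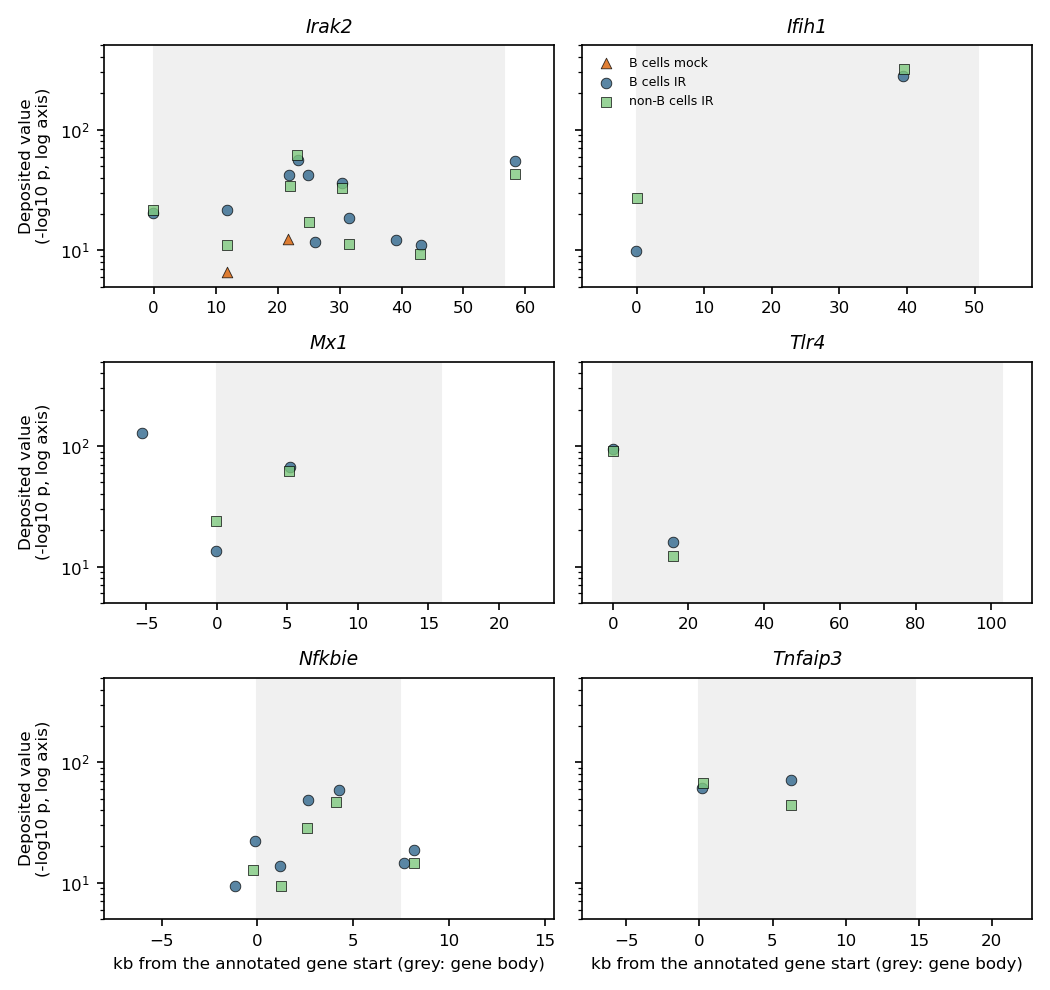
Deposited value (−log10 p, log axis) of each listed peak against its distance in kb from the annotated gene start, for Irak2, Ifih1, Mx1, Tlr4, Nfkbie and Tnfaip3, with the gene body in grey. Points are single peaks of mock B cells, irradiated B cells and irradiated non-B cells; the mock points are both in Irak2 and lie below the IR points at the same place, and the Ifih1 peaks at 39.4 and 39.5 kb are the highest points shown, with 281.3 and 318.66.

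A comparison of B and non-B cells after irradiation gave much the same genes. Both IR lists held a peak for 36 of the 40 genes, against 44.4% of all genes, and neither did for 2, Tlr5 and Tlr8, against 48.7%. For Tlr5 the next peaks lay 8.36 and 8.51 kb from the gene body, and for Tlr8 11.2 kb in both lists. Of the 113 irradiated B cell peaks, 77 (68.1%) overlapped an irradiated non-B cell peak, below the 73.6% of all peaks of that list. Of the 86 irradiated non-B cell peaks, 78 (90.7%) overlapped an irradiated B cell peak, above the 85.3% of all peaks. Over the 77 overlapping pairs, the percentile was higher in irradiated B cells for 50 (64.9%), against 59.2% of 18045 pairs over all peaks, with a median difference of 4.69 percentile points in B minus non-B, against 2.54. The highest peak of a gene ranked higher in irradiated B cells for 25 of the 36 shared genes (69.4%, against 51.8% of 9931 protein_coding genes with a peak in both lists) and higher in irradiated non-B cells for 11. The medians were 79.1 and 66.1, against 66.9 and 67.0 over all such genes. Without Mx1, whose order depends on the edge of the window, the count was 24 of 35. The listed genes held 113 peaks in irradiated B cells against 86 in irradiated non-B cells. For some genes, such as Irf2 and Relb, the highest peak lay at different places in the lists. The part of either in the count of genes was not tested.

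**Figure D4:**
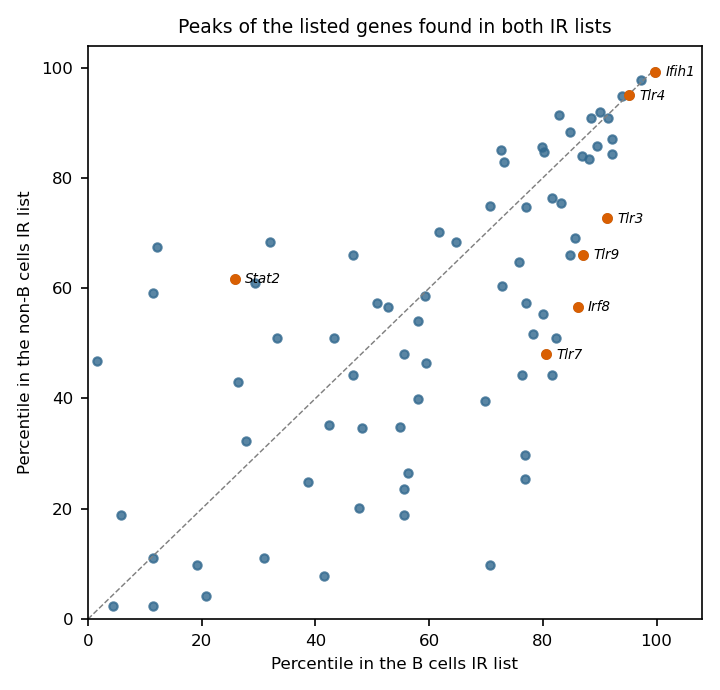
Percentile of each of the 77 overlapping peak pairs of the listed genes in the irradiated B cell list (x axis) and in the irradiated non-B cell list (y axis), with the line of equal percentiles dashed. Orange points are the highest irradiated B cell peak of each labelled gene that has a partner: Ifih1 and Tlr4 lie on the line, Tlr3, Tlr7, Tlr9 and Irf8 below it (higher in irradiated B cells), and Stat2 above it.

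The unsplit p53 element was found at a smaller share of these peaks than of the peaks of the lists as a whole. It stood at 7 of the 113 irradiated B cell peaks (6.19%, 95% Wilson interval 3.03 to 12.2%), against 15.3% of all peaks and 11.9% of peaks in the window of any protein_coding gene. In irradiated non-B cells it was found at 7 of 86 (8.14%, 4.00 to 15.9%), against 15.4 and 11.6%. The interval lay below the share of all peaks in irradiated B cells but reached it in irradiated non-B cells, and in both lists it reached the share of peaks in gene windows. These intervals cover counting error only and treat peaks of the same gene as separate draws, so this comparison is not a test. With a spacer of 0 to 15 bases allowed, the shares were 34.5% against 46.0% of all irradiated B cell peaks and 34.9% against 45.3% of all irradiated non-B cell peaks. Distance from a start site moves with this share. Of the irradiated B cell peaks, 58 of the 113 lay within 1 kb of a start site of any protein_coding gene (51.3%, against 34.2% of all peaks), and there 1.72% held the element, against 4.59% of all such peaks. Among the 55 farther peaks 10.9% held it, against 20.9%. In irradiated non-B cells the shares were 4.26% of 47 near peaks, against 4.53%, and 12.8% of 39 farther peaks, against 21.7%. The near peaks of the listed genes ranked higher than near peaks in general, with 22.4% above the 80th percentile in irradiated B cells, against 13.2%, and 23.4% in irradiated non-B cells, against 16.1%.

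Sequences of another kind were found at many peaks near start sites. The letters GGGNNTTTCC, a common form of the site that NF-kB binds, and GAAANNGAAA, a common form of the interferon-stimulated response element, were searched on both strands within 300 bp of each peak midpoint. They were chosen after the lists had been seen, and they share the letters TTTC, read as GAAA on the other strand. GGGNNTTTCC was found at 15 of the 113 irradiated B cell peaks (13.3%, against 5.70% of all peaks) and at 12 of the 86 irradiated non-B cell peaks (14.0%, against 5.75%). The 15 irradiated B cell peaks with a match belonged to 12 genes and the 12 irradiated non-B cell peaks to 9. Peaks of the same gene were counted as separate draws, so these shares are not a test. Most of the matched peaks were near start sites. In irradiated B cells 12 of 58 near peaks held a match (20.7%, against 4.40% of all near peaks). In irradiated non-B cells 9 of 47 did (19.1%, against 4.11%). Farther peaks held GGGNNTTTCC in 3 of 55 cases in irradiated B cells (5.45%, against 6.38%) and 3 of 39 in irradiated non-B cells (7.69%, against 6.71%). GAAANNGAAA was found at 13 of the 113 peaks in irradiated B cells (11.5%, against 10.1% of all peaks) and at 9 of the 86 in irradiated non-B cells (10.5%, against 9.86%), so its share was near that of the lists.

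The genes with GGGNNTTTCC at an irradiated B cell peak were Ifnar2, Irak2, Irf2, Irf5, Nfkb1, Nfkb2, Nfkbia, Nfkbie, Rel, Tlr3, Tlr9 and Tnfaip3, and all of these except Irf5, Rel and Tlr3 had it at an irradiated non-B cell peak. For the NF-kB subunit and inhibitor genes with a match at a peak within 1 kb of their start, and for Irf2, the match at the highest such peak is printed, on the matched strand with the letters of the match in capitals, so that these can be set beside the p53 elements above. These genes were chosen after the matches were seen.
Nfkbia: caggcgcgGGGAATTTCCaagccagt
Tnfaip3: gccaacagGGGGATTTCCgatggaaa
Nfkb1: acgtcagtGGGAATTTCCagccagga
Nfkb2: ggccgaaaGGGGCTTTCCcggctgga
Rel: ggagggggGGGGATTTCCcgctgctt
Irf2: ggggtgggGGGGATTTCCagcctcgg
They lie at mm9 chr12:56593654-56593663 (plus strand), chr10:18735219-18735228 (plus), chr3:135354471-135354480 (minus), chr19:46379216-46379225 (plus), chr11:23671051-23671060 (plus) and chr8:47825082-47825091 (plus). For Nfkbia and Tnfaip3 the match lay within a start-site peak above the 80th percentile in both IR lists, and no unsplit p53 element was found within 300 bp of any of their peaks, although the Nfkbia start-site peak held an element with a spacer. The Rel match lay between called peaks. The Irf2 match lay at the edge of a called peak in irradiated B cells. It was counted there not at that peak but at the neighbouring higher one, which ended before the match. In irradiated non-B cells the Irf2 match lay between called peaks. There it was within 300 bp of the midpoints of both neighbouring peaks and was counted at each. A match describes the letters at a peak and does not show which factor was bound there.

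**Figure D5:**
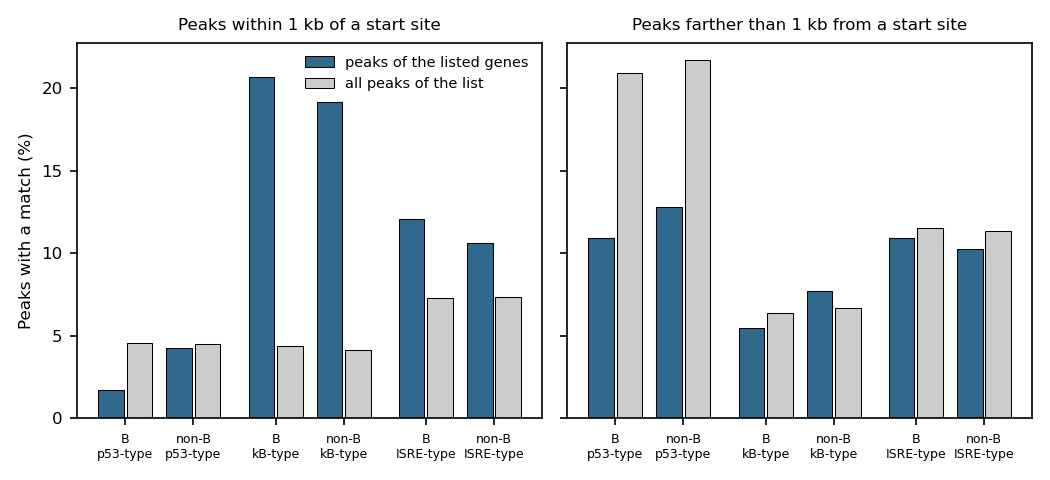
Share of peaks, in percent, with a match within 300 bp of the midpoint to the unsplit p53 element (p53-type), GGGNNTTTCC (kB-type) or GAAANNGAAA (ISRE-type), in irradiated B cells (B) and irradiated non-B cells (non-B), split by distance from a start site. Dark bars are the peaks of the listed genes and grey bars all peaks of the list: kB-type letters stand at 20.7 and 19.1% against 4.40 and 4.11% near start sites, and the dark bars of the p53-type element stand below the grey bars in each pair, though near start sites in non-B cells by no more than 4.26 against 4.53%.

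The 42 further genes of these pathways also had a peak more often than genes of their length after irradiation. In irradiated B cells 36 had a peak (85.7%, against 55.8% of genes of their length) and in irradiated non-B cells 34 (81.0%, against 54.1%). Unlike the 40 listed genes, they were also above genes of their length in the mock lists, by few genes. In mock B cells 3 had one (7.14%, against 3.70%) and in mock non-B cells 4 (9.52%, against 1.78%), and in Trp53-/- spleen none did. The 3 genes with the highest rank after irradiation code for parts of the kinase complexes that switch on NF-kB. Ikbkg (NEMO) had 140.12 (97.7) in irradiated B cells and 223.59 (98.6) in irradiated non-B cells, Tab2 had 157.56 (98.1) and 182.91 (98.0), and Tab1 had 90.64 (94.9) and 117.68 (96.4). Tab2 was also the gene with the highest mock peaks, 20.11 (87.4) and 19.39 (79.1) in mock B and mock non-B cells, at the same place as its highest IR peaks. Jak1, a kinase of the interferon receptor, had mock peaks of 6.4 (9.62) and 12.52 (63.1) in B and non-B cells, Irf4, a factor of lymphocyte differentiation, of 10.72 (62.7) and 5.41 (1.12), and Traf1, an NF-kB target, of 10.9 (53.2) in non-B cells alone.

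List length moves with the difference between mock and irradiated cells. When the irradiated B cell list was reduced to its 1413 highest peaks, the number in mock B cells, 3 of the 40 genes kept a peak, Ifih1, Mx1 and Tlr4, against 1 gene in mock B cells and 3.96% of all genes in the reduced list. When the irradiated non-B cell list was reduced to its 712 highest peaks, Ifih1 alone kept one, against no gene in mock non-B cells and 1.997% of all genes in the reduced list.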

How the data were processed

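p53 ChIP-seq peak lists were used from 5 libraries, 1 per group, with groups taken from the sample labels. Per the submitters' processing notes, reads were aligned with BWA 0.6.2 to mm9 and handled with SAMtools, and per the methods of the study peaks were called with MACS on each library. The deposited column is −log10 of the peak p-value, as the authors computed it; the unit was read from the values, and for the short Trp53-/- list it was assumed. Depth is unknown. Values below 8, which a limit stated in the methods corresponds to on this scale, were present, and which filter was applied before deposit is not given in the sources used here.

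Coordinates are mm9 (NCBIM37), counted from 1, with GENCODE vM1 genes. All 40 genes matched by symbol. A peak was assigned to a gene by an overlap of at least 1 bp with the gene body extended by 5 kb. Percentiles are ranks by deposited value within a list, with tied values sharing their mean rank. Shares over genes of similar length are means, over the listed genes, of the share among protein_coding genes within 20% of the length. Intervals are 95% Wilson intervals and cover counting error only. Values were given for genes with a mock peak, with a highest peak above the 80th percentile in an IR list, with a peak in 1 IR list only, or with an unsplit element, and genes with no IR peak were named. Of the further genes, those with a mock peak and the 3 with the highest percentile were named. Values of other genes were added after they had been seen. The genes and lists were chosen with earlier results of these data known. Alternatives were other windows, minimum values, equal list sizes, removal of peaks shared with Trp53-/-, length limits, ranking by width and element settings. The assignment of peaks to gene windows was tested on simulated peaks. The search for the unsplit element was tested on simulated sequences with planted elements free of mismatches. The other steps were not tested in this way. Analyses were run with pandas 2.3.3, pysam 0.24.0, scipy 1.17.1, numpy 2.4.6 and matplotlib 3.10.9 under Python 3.11.15.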

Additional observations from a re-analysis of the deposited data

How the results depend on the processing

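No paired analysis was possible because the groups hold 1 library each, and leaving out a replicate was not possible either. Of 77 values recomputed under the alternatives, 65 moved by less than their counting interval or stayed within 1.5 times the main count, and 12 moved further. Reversal of a direction was not assessed. With a deposited value of at least 20, no gene had a peak in mock B cells, 23 genes had one in both IR lists, 5 in irradiated B cells alone, 3 in irradiated non-B cells alone and 9 in neither. At that minimum, 28 genes had a peak in irradiated B cells, against 31.7% of all genes, and 26 in irradiated non-B cells, against 30.2%. A minimum value of 8 gave 3 genes in irradiated B cells alone. Shares of all genes were not taken for the split between lists at these minimum values. With each IR list reduced to the length of its mock list, the excess of IR over mock genes was 2 genes in B cells and 1 gene in non-B cells, where the full lists gave 36 and 37. With the irradiated B cell list reduced to the length of the irradiated non-B cell list, 3 genes had a peak in irradiated non-B cells alone. At most 4 mismatches gave an unsplit element at 14.2% of the irradiated B cell peaks (22.9% of all peaks), and a spacer of 0 to 15 bases gave 34.5% in irradiated B cells and 34.9% in irradiated non-B cells. Equal list sizes shorten the IR lists, and more mismatches or a spacer loosen the element, by construction. The part of list length or depth in the smaller excess of IR over mock genes was not tested. Depth, and so the number of sites missed in the mock and Trp53-/- lists, is unknown.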

Other observations

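Within 1 kb of a start site the letters GAAANNGAAA were found at 7 of 58 peaks in irradiated B cells (12.1%), against 7.27% of all near peaks, and at 5 of 47 in irradiated non-B cells (10.6%), against 7.34%. The genes with such a match were Ifih1, Irf2, Irf7, Myd88, Stat2, Tlr1 and Tlr6 in irradiated B cells and Ifih1, Irf2, Isg15, Stat2 and Tlr1 in irradiated non-B cells. Peaks farther from a start also held matches, at Irak2, Irak3, Mx1 and Relb among others. Isg15, the gene with a peak in irradiated non-B cells alone, held 3 overlapping matches near its start, of which the first is printed with those of Stat2 and Ifih1 because these genes are known to respond to interferon. Capitals mark the match, on the matched strand.
Isg15: tgccgtagGAAAAGGAAAccgaaaca
Stat2: agggaaagGAAACTGAAAccagggtg
Ifih1: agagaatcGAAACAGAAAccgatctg
They lie at mm9 chr4:155574996-155575005, chr10:127707332-127707341 and chr2:62484271-62484280, all on the minus strand. The Stat2 match lay just outside its called peak in both IR lists. The Ifih1 match is at its low start-site peak, and another lay at the high intronic peak with the p53 element. The genes printed here were chosen after the matches were seen.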
